A study of Mus musculus with 6 samples.

Results

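The genes that encode the subunits of oxidative phosphorylation were followed in the bone marrow of mice lacking nuclear myosin 1 (NM1 KO) and of wild-type mice (NM1 WT). The members were the protein-coding genes of the GRCm38 annotation whose symbols start with Nduf (assembly factors left out), Uqcr, Cox4 to Cox8, Atp5 or mt-, together with Sdha, Sdhb, Sdhc and Sdhd. Of 46603 genes in the count files, 98 were members, 85 of them encoded in the nucleus and 13 in the mitochondrial genome. A test was made on 95 of the 98, since Cox7b2, Cox8b and Cox8c had too few counts.

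Oxidative phosphorylation is carried out by 5 protein complexes in the inner mitochondrial membrane. Complexes I and II take electrons from NADH and succinate, complexes III and IV pass them by way of cytochrome c to oxygen, and complex V, the ATP synthase, uses the proton gradient that complexes I, III and IV build. Complex II is encoded wholly in the nucleus, while the other complexes mix nuclear subunits with subunits transcribed inside the mitochondrion from its own small genome, so that their supply depends on both genomes. In bone marrow, mitochondria are abundant in red cell precursors, are lost as red cells mature, and are sparse in mature neutrophils.

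The study sequenced RNA from 6 C57/Bl6 mice aged 8 months, 3 with the NM1 knockout and 3 wild type. Nuclear myosin 1 is an isoform of the class I myosin gene Myo1c, and the labels do not say how its loss was made or in which cells. Each library came from the marrow of the femurs and tibiae of 1 mouse, with no sorting of cell types. In such bulk RNA, fewer cells of a type and less RNA per cell cannot be told apart.

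Library totals ran from 15145052 to 22618802 counts, and all 3 NM1 KO totals were above all 3 NM1 WT totals. Levels are given as CPM, a gene's counts over a common library total with TMM scaling, so that 1 CPM corresponds to 14.7 to 23 counts. Myo1c, counted over the whole gene and therefore not a measure of the nuclear isoform alone, was at 73.8, 59.1 and 59.7 CPM in NM1 KO and 89.8, 115 and 102 CPM in NM1 WT (log2 fold change -0.67, SE 0.14, adjusted p = 0.0516, edgeR quasi-likelihood test). Y-linked genes were counted in NM1 KO mice 1 and 2 and in NM1 WT mouse 2 at 155 to 202 CPM in sum and at 0 in the other 3, so each genotype mixes both states in different proportions. Across the whole marrow, summed platelet and megakaryocyte markers were at 2424 to 5071 CPM in NM1 KO against 1186 to 1544 CPM in NM1 WT, while neutrophil markers were at 39894 to 51924 CPM against 51929.5 to 70727 CPM. Erythroid markers overlapped, at 81529.8 to 87167 CPM against 66305 to 91538 CPM. The part of these shifts in cell makeup in the results that follow was not tested.

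How far a mitochondrial gene can be counted depends on its sequence, because long copies of mitochondrial DNA lie in the nuclear genome and a read that matches both places may be dropped or assigned to either. The 3 stretches below, from the + strand of the GRCm38 mitochondrial genome, show a gene with annotated copies throughout and 2 with annotated copies in part. Capitals mark bases that lie in a 50-base word found unchanged in any other annotated gene. The copy named with each stretch is the one, on chromosome 1, that shares the most such words with the gene as a whole. Because mt-Co1 also shares words with Gm13340 and Gm11512, its label does not name the source of the capitals in its stretch.
mt-Co2, chrM:7013-7092, copy Gm28661: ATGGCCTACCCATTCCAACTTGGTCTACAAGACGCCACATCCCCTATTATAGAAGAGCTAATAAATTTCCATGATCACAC
mt-Nd4, chrM:11003-11082, copy Gm28439: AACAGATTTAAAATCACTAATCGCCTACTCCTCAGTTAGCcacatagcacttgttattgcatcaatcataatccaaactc
mt-Co1, chrM:5341-5420, copy Gm29216: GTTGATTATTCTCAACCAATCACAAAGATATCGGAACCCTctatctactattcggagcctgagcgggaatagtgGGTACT
The mt-Co2 stretch is in capitals throughout, as is the rest of that gene, and the mt-Nd4 stretch crosses the edge of its annotated copy. The mt-Co1 stretch shows a run of bases outside such words between shared ones. Small letters do not show that a base is unique, because copies outside annotated genes were not searched.

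Among the nuclear members, many have promoters that carry short motifs known from other housekeeping genes, and 4 examples are shown because their genes are described below. The sequences are from RefSeq (GRCm38.p6), written in the direction of the gene, and capitals mark the motif. The annotation that defines the members places the starts of Ndufb7 and Sdhb further upstream, at chr8:83566671 and chr4:140961203. By that annotation the motifs shown for these 2 genes lie inside them.
Sdhb, NRF1 core, chr4:140961191-140961250, + strand: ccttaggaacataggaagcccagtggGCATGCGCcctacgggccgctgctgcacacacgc
Cox6a1, NRF1 core, chr5:115349085-115349144, - strand: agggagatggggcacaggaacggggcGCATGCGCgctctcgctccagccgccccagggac
Ndufb7, ETS core, chr8:83566698-83566757, + strand: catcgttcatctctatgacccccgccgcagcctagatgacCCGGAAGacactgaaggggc
Atp5e, ETS core, chr2:174464170-174464229, - strand: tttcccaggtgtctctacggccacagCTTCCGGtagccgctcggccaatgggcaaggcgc
Promoters, taken as 250 bases before to 50 after the start, were found for 67 of the 85 nuclear members, giving 72 promoters. The letters GCATGCGC, the core of the site of nuclear respiratory factor 1, were present on either strand in 13.9% of them and in 3.5% of 21263 promoters of protein-coding genes. The ETS core CCGGAAG, the kind of site that GABP binds, was present in 22.2% against 11.6%, and the YY1 core AAGATGGC in 12.5% against 3.1%. The letters TATAAA were present in 11.1% of member promoters and in 12.6% of those of protein-coding genes. These letter matches describe the promoters and do not show binding.

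No subunit gene passed the threshold of an adjusted p below 0.05 (edgeR quasi-likelihood test, Benjamini-Hochberg adjustment over all 15069 tested genes): 0 of 82 nuclear and 0 of 13 mitochondrial members were called, where 0.776% of all tested genes were. The smallest adjusted p among the members was 0.131, that of Ndufb7. Before adjustment, 12 of 82 nuclear members (14.6%) and 2 of 13 mitochondrial members had p below 0.05, with 16.8% of all tested genes past the same limit. By direction, 2 nuclear members were higher and 10 lower, beside 8.44% and 8.32% of all tested genes, and both mitochondrial members (mt-Co2 and mt-Nd6) were lower. More nuclear members lay lower than higher in NM1 KO, with 56 of 82 (68.3%) at a negative log2 fold change against 49.8% of all tested genes. Their median log2 fold change was -0.10, and it was -0.18 for the mitochondrial members and 0.00 for all tested genes.

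The precision was enough to limit the size of a change in most members. The 95% interval of the fold change lay wholly within a 1.5-fold change in either direction for 66 of 82 nuclear and 7 of 13 mitochondrial members, and within 2-fold for 78 and 10 of them. The genotype groups did not overlap, meaning that every NM1 KO mouse lay on the same side of every NM1 WT mouse, for 19 nuclear members on the lower side (23.2%, against 9.75% of all tested genes) and 3 on the higher side (3.66%, against 10.8%). Of the mitochondrial members, mt-Co3 alone did not overlap, and it was lower (7.69% of the 13). Some counts are shared with other loci: 50 of the 85 nuclear members had at least 1 of their 50-base words in another annotated gene, 7 of them over 20% of their words, and Ndufa2 and Cox4i1 overlap genes on the other strand (Tmco6 and Emc8) in 11.5% and 9.9% of their exon bases.

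**Figure D1:**
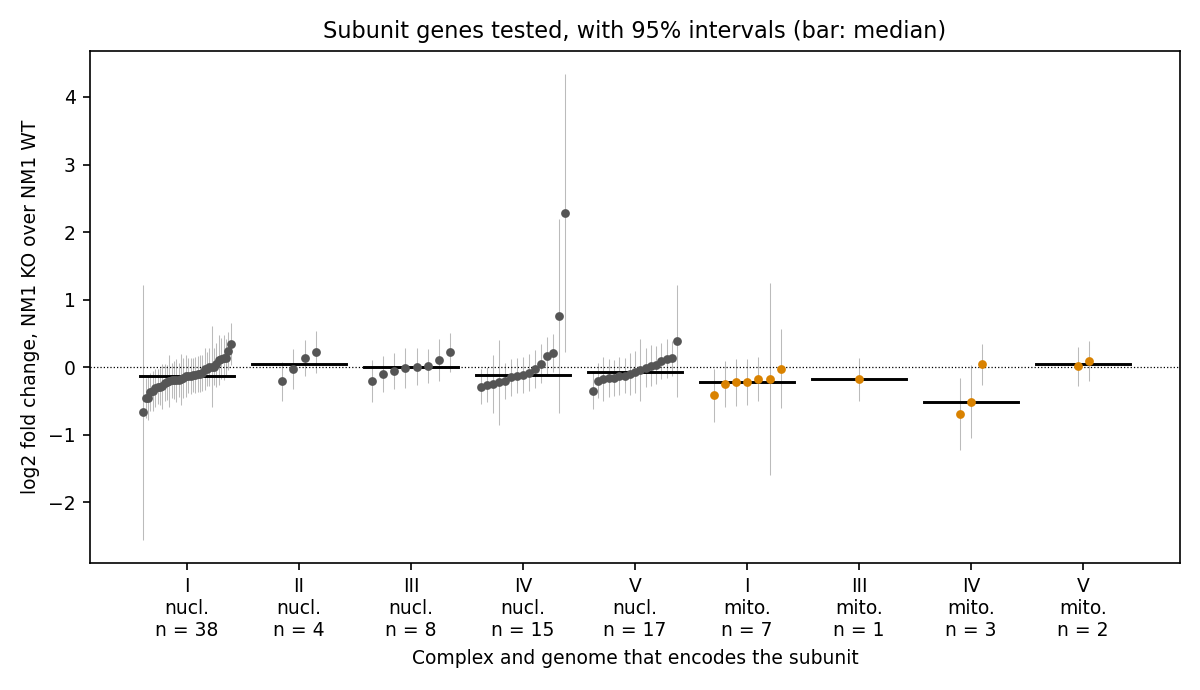
Log2 fold change (NM1 KO over NM1 WT, vertical axis) of each tested subunit gene with its 95% interval, by complex and by the genome that encodes it, with a bar at each group's median. Most points lie between -0.5 and 0.5; the wide intervals belong to genes near the limit of counting, such as Cox7a1 at 2.29.

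Complex I, the NADH dehydrogenase, had 38 nuclear members, all of them tested. Of these, 29 had a negative log2 fold change, and the median was -0.13. With no overlap between the groups, 13 were lower and 2 higher in NM1 KO (34.2% and 5.26%, against 9.75% and 10.8% of all tested genes). The 7 core subunits, which hold the flavin and iron-sulfur clusters, had a median of -0.03, and the 31 accessory subunits, which surround and stabilise the core, had a median of -0.16. Without overlap, 1 of the 7 core (14.3%) and 12 of the 31 accessory subunits (38.7%) were lower, against the same 9.75%.

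Ndufb7 (ENSMUSG00000033938, chr8:83566671-83571626, + strand, GRCm38), an accessory subunit of the membrane arm whose promoter is shown above, was at 161, 145 and 174 CPM in NM1 KO and at 239, 189 and 233 CPM in NM1 WT. All 3 NM1 KO mice were below all 3 NM1 WT mice, and the log2 fold change was -0.46 (SE 0.14, adjusted p = 0.131, edgeR quasi-likelihood test), with a 95% interval from -0.75 to -0.16. With DESeq2 its adjusted p was 0.0315, and over all alternatives it ranged up to 0.47. Ndufv3, an accessory subunit beside the NADH-binding module, was at 60, 53.3 and 77.3 CPM against 89.2, 80 and 91.1 CPM. These groups also did not overlap, though NM1 KO mouse 3 came close to NM1 WT mouse 2, and the log2 fold change was -0.45 (SE 0.15, adjusted p = 0.171).

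Ndufa2, the complex I subunit with the highest level per length (229.5 CPM per kilobase of annotated exon), was at 116, 115 and 122 CPM in NM1 KO and 156, 125 and 154 CPM in NM1 WT. Its groups did not overlap, with NM1 WT mouse 2 the lowest wild-type mouse and close to the knockouts (log2 fold change -0.31, adjusted p = 0.259). Ndufs1, the largest core subunit, was chosen after its values were seen because they lay the other way. It was at 70.1, 73.3 and 87.6 CPM in NM1 KO and 52.5, 67.2 and 62.8 CPM in NM1 WT, every knockout above every wild type, a difference of 0.34 on the log2 scale (SE 0.14, adjusted p = 0.259). The accessory subunit Ndufc2 was the only other complex I member whose knockout mice were all higher, with a log2 fold change of 0.24. Ndufa4, counted here by its symbol though the protein is now placed in complex IV, was at 168, 194 and 169 CPM against 152, 151 and 177 CPM, and its groups overlapped.

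The 7 mitochondrially encoded complex I genes, which form the proton-pumping membrane core, all had negative log2 fold changes, from -0.42 to -0.02, with a median of -0.22. In none of the 7 did the groups separate. mt-Nd1 was at 2733, 2357 and 2038 CPM in NM1 KO and 3137, 2342 and 2976 CPM in NM1 WT, with NM1 WT mouse 2 inside the knockout range (log2 fold change -0.25, adjusted p = 0.46). mt-Nd6, the single subunit gene on the opposite strand of the mitochondrial genome, was at 721, 538 and 504 CPM against 877, 604 and 872 CPM, again with NM1 WT mouse 2 low (log2 fold change -0.42, SE 0.18, adjusted p = 0.269). Its annotated end overlaps mt-Nd5 on the other strand by 14 bases. The strand setting of the counts is not given in the sources used here. If strand was ignored, RNA of the other strand along the whole gene would count as mt-Nd6, which was not tested. The log2 fold changes of mt-Nd2, mt-Nd4 and mt-Nd5 were -0.22, -0.22 and -0.18. mt-Nd3, at 5.96 to 9.31 CPM over the 6 mice, had a log2 fold change of -0.02 (SE 0.27). mt-Nd4l, at 0.469 to 0.827 CPM and 9 to 19 counts a library, was too sparse to place, with a 95% interval from -1.60 to 1.25.

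Complex II, succinate dehydrogenase, links the tricarboxylic acid cycle to the chain. Its 4 genes split evenly by direction and all 4 had overlapping groups, with a median log2 fold change of 0.05. The flavoprotein subunit Sdha was at 159.9, 172 and 205 CPM in NM1 KO and 166, 199 and 181 CPM in NM1 WT (log2 fold change -0.03, 95% interval -0.32 to 0.27). The iron-sulfur subunit Sdhb, whose promoter with an NRF1 core is shown above, was at 74.5, 70.5 and 89.1 CPM against 84.5, 97.2 and 89 CPM. Its log2 fold change was -0.21, with NM1 KO mouse 3 level with NM1 WT mouse 3. The membrane anchors had positive values: Sdhc was at 79.8, 104 and 106 CPM against 78.5, 91.2 and 78.4 CPM (log2 fold change 0.22, adjusted p = 0.466). Sdhd, the complex II gene with the highest level per length, was at 110.2, 120.4 and 121 CPM against 100.4, 116 and 103 CPM (log2 fold change 0.13, adjusted p = 0.626).

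Complex III, the cytochrome bc1 complex, had 8 nuclear members, 4 with a positive and 4 with a negative log2 fold change, a median of 0.00 and overlapping groups in all 8. The Rieske iron-sulfur protein Uqcrfs1 was at 94.2, 122 and 116 CPM in NM1 KO and 90.5, 102 and 92.7 CPM in NM1 WT. Its log2 fold change was 0.22 (adjusted p = 0.442), and NM1 KO mouse 1 lay among the wild types. The core protein Uqcrc1 was at 136, 136 and 170.3 CPM against 147, 189 and 171 CPM (log2 fold change -0.20, adjusted p = 0.527). Uqcrh, the hinge protein and the complex III gene with the highest level per length, was at 236, 245 and 219 CPM against 256, 195 and 256 CPM (log2 fold change -0.01). The mitochondrial member mt-Cytb, the cytochrome b that holds both quinone sites, was at 2790.1, 2562 and 2148 CPM against 3092, 2429.9 and 2959 CPM (log2 fold change -0.18, adjusted p = 0.587). As with mt-Nd1, NM1 WT mouse 2 fell inside the knockout range.

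Complex IV, cytochrome c oxidase, had 18 nuclear members, of which 15 were tested. The median of the 15 was -0.11, with 10 negative, 4 lower in NM1 KO without overlap (Cox4i1, Cox5b, Cox6b1 and Cox8a) and 1 higher (Cox7a1). The last 2 counts are 26.7% and 6.67% of the 15, against 9.75% and 10.8% of all tested genes. Cox4i1 (ENSMUSG00000031818, chr8:120668222-120674207), the common form of the largest nuclear subunit, was at 400.4, 409 and 440.4 CPM in NM1 KO and 525, 488 and 511 CPM in NM1 WT. The groups did not overlap, and the log2 fold change was -0.29 (SE 0.12, 95% interval -0.54 to -0.03, adjusted p = 0.244, edgeR quasi-likelihood test). Cox6b1, which faces the intermembrane space, was at 186, 197 and 204 CPM against 244, 219 and 239 CPM, with a log2 fold change of -0.26 (adjusted p = 0.291). Cox6a1, the nuclear member with the highest level per length of all (538 CPM per kilobase), was at 328, 339.7 and 387 CPM against 411, 378 and 420.3 CPM. NM1 KO mouse 3 lay above NM1 WT mouse 2 there, and the log2 fold change was -0.20 (adjusted p = 0.451). Cox8a was at 209.6, 236 and 236 CPM against 252, 240.2 and 249 CPM (log2 fold change -0.12, 95% interval -0.38 to 0.13), separated by little.

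Several complex IV subunits, and Ndufa4, counted in complex I by its symbol, have tissue-restricted isoforms, and these were followed beside their common partners. Cox7a1, the heart and skeletal muscle form, was at 1.83, 0.737 and 0.563 CPM in NM1 KO and 0.271, 0.348 and 0 CPM in NM1 WT. Every knockout mouse was higher, a difference of 2.29 on the log2 scale (SE 0.94, 95% interval 0.23 to 4.34, adjusted p = 0.25), while its common partner Cox7a2 was at 95.2, 114 and 115 CPM against 119, 107 and 116 CPM. Cox7a1 passed the count filter (0.517 CPM in 3 libraries) through the NM1 KO mice alone, so its separation and interval come from a gene kept for being high there and are given as a description. Cox8b, another muscle and brown fat form, was at 0.261, 0.921 and 1.13 CPM in NM1 KO, 50 counts in all, and at 0 in the 3 NM1 WT mice. Against a floor of 6 counts, or 3 read pairs, over the wild-type group, this was at least 5.96-fold higher. Cox8b fell under the count filter of the main test, and with no filter its adjusted p was 0.00394.

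Skeletal muscle markers, when summed, were also higher in NM1 KO. The summed level of 20 skeletal muscle markers was 161 to 186 CPM in NM1 KO and 52.9 to 68.4 CPM in NM1 WT. Of its 16 tested markers 7 rose and 0 fell, beside 0.591% and 0.186% of all tested genes, and in 4 the groups overlapped. Among the 7, Mb (myoglobin) was at 0 in every NM1 WT mouse and Myl1 at 0.407 CPM at most. Both passed the count filter through the NM1 KO mice alone, so the count is a description. Tnnc2 was at 0 in all 6 mice. The fat list, of 8 genes, summed to 170.1 to 384 CPM against 76.8 to 131 CPM, with the brown fat markers Ucp1 at 0 to 0.131 CPM and Cidea at 0 throughout. Their part in the Cox7a1 and Cox8b values was not tested.

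The other isoforms showed no such separation. Cox4i2, the lung and smooth muscle form, was at 1.31, 1.75 and 1.59 CPM against 1.22, 0.232 and 1.31 CPM, with the highest wild type level with the lowest knockout (log2 fold change 0.76, adjusted p = 0.61). Smooth muscle and pericyte markers did not go one way. Their sum overlapped, at 53.1 to 80.7 CPM against 42.8 to 64.9 CPM, but among the 7 tested the pericyte channel genes Kcnj8 and Abcc9 and the receptor Notch3 were higher in NM1 KO without overlap and the contractile genes Acta2 and Tagln lower, all with adjusted p of 0.0548 or more. Their part in the Cox4i2 values was not tested. Cox6a2, the muscle form of subunit 6a, was at 6.09 to 7.36 CPM against 6.37 to 10.2 CPM with overlapping groups (log2 fold change -0.22, adjusted p = 0.753). Cox6b2, known from testis, was the most abundant of these isoforms, at 35.6, 42.6 and 56.1 CPM against 59.1, 40.5 and 60.5 CPM, although 5 testis markers summed to at most 0.136 CPM in any library. Ndufa4l2, a form induced by low oxygen, was at 0.136 to 0.927 CPM over the 6 mice, and Cox7b2 and Cox8c were at 0 in every library. The common partner Cox7b was at 83.8, 106 and 89 CPM against 79.2, 84.8 and 77.8 CPM (log2 fold change 0.21, adjusted p = 0.459).

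**Figure D2:**
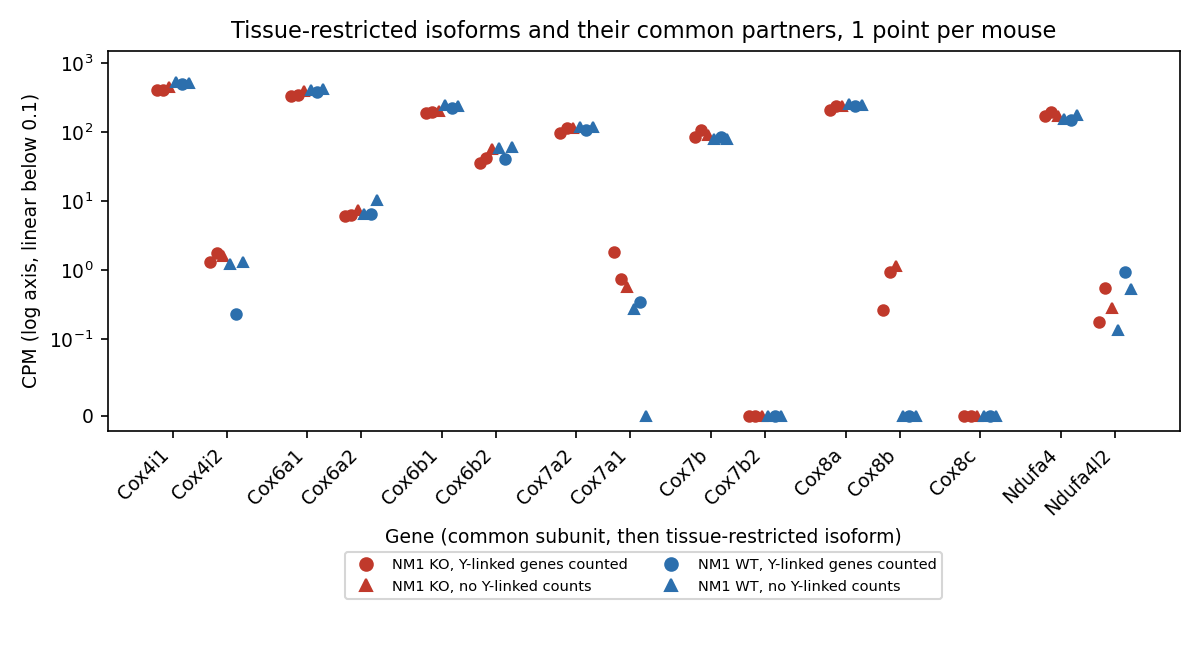
CPM (log axis, linear below 0.1) of the tissue-restricted isoforms and of their common partners, with 1 point per mouse, colour for genotype and shape for Y-linked counts. Cox8b is above 0 in the 3 NM1 KO mice alone, Cox7a1 is higher in those 3 mice, and each isoform lies below its common partner in every mouse.

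The 3 mitochondrial genes of complex IV encode its catalytic core, and they differed strongly in level. mt-Co1 was the most abundant member of all, at 7218, 7127 and 5625 CPM in NM1 KO and 6741, 6369 and 6237 CPM in NM1 WT (log2 fold change 0.05, 95% interval -0.26 to 0.35). mt-Co2 was at 12.1, 10.1 and 9.38 CPM against 20.4, 11.6 and 19 CPM, the lowest log2 fold change among the mitochondrial members (-0.69, SE 0.24, adjusted p = 0.186). NM1 WT mouse 2 fell within the knockout range. mt-Co3 was at 8.01, 6.59 and 6.75 CPM against 11.6, 8.34 and 10.5 CPM, with a log2 fold change of -0.51 (adjusted p = 0.326).

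The levels can be set beside the sequence shared with nuclear copies that the printed stretches show. Per kilobase, mt-Co1 was at 4241 CPM, mt-Nd1 at 2714 CPM, mt-Cytb at 2328 CPM, mt-Nd6 at 1322 CPM and mt-Atp8 at 1172 CPM. In contrast, mt-Nd3 was at 22.8 CPM, mt-Co2 at 20.1 CPM, mt-Co3 at 11 CPM and mt-Nd4l at 2.21 CPM per kilobase. The share of 50-base words also found in another annotated gene was 98% to 100% in the 4 low genes. It was 0% in mt-Nd1, mt-Cytb, mt-Nd6 and mt-Atp8. A share of 0% does not show unique sequence, because copies outside annotated genes were not searched. mt-Atp8 lies between mt-Co2 and mt-Atp6, whose copies are Gm28661 (chr1:24614885-24615565) and Gm10925 (chr1:24613974-24614651). Whether the bases between those copies match mt-Atp8 was not tested. The 4 lowest levels thus belonged to genes with almost no unique words. Above those, level did not follow the share: mt-Co1, the highest, shared 51.1%, and mt-Nd4 shared 62.2% at 879 CPM per kilobase while mt-Nd5 shared 7.6% at 462 CPM. mt-Atp6 had 99.5% of its words shared and 358 CPM per kilobase, and 43 of its bases overlap mt-Atp8 on the same strand. The 6 nuclear copies that were followed summed to 11.5 to 16.7 CPM in NM1 KO and 16.1 to 22 CPM in NM1 WT, all 6 with negative log2 fold changes and a median of -0.57, near the values of mt-Co2 and mt-Co3. For mt-Co2, mt-Co3, mt-Nd3, mt-Nd4l and mt-Atp6, which have almost no unique words, reads from gene and copy cannot be told apart by sequence.

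**Figure D3:**
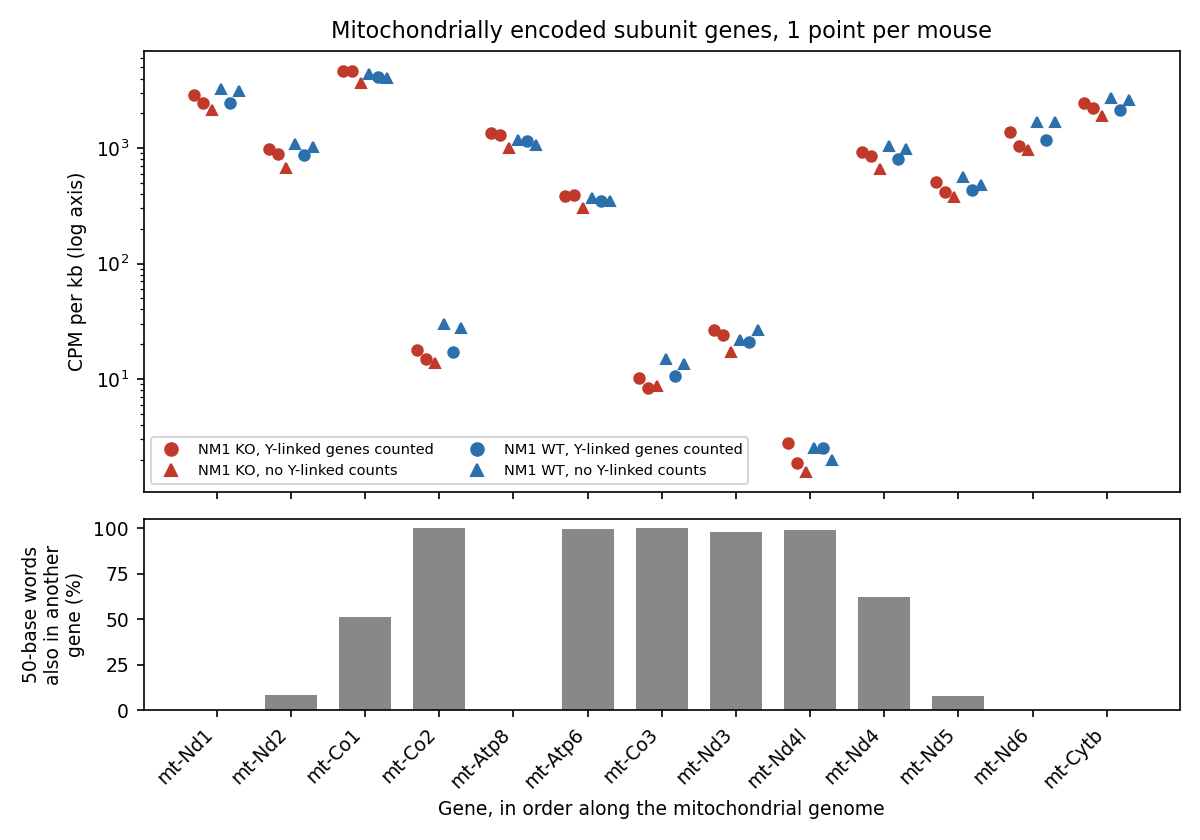
The upper panel gives CPM per kilobase (log axis) of the 13 mitochondrially encoded genes in each mouse, in their order along the genome; the lower panel gives the percent of each gene's 50-base words that also occur in another annotated gene. The 4 genes below 100 CPM per kilobase, mt-Co2, mt-Co3, mt-Nd3 and mt-Nd4l, share 98% to 100% of their words.

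Complex V, the ATP synthase, had 17 nuclear members, with a median log2 fold change of -0.07 and 11 negative values. Atp5d and Atp5e, the delta and epsilon subunits of the central stalk, were the 2 whose groups did not overlap, and both were lower. They make up 11.8% of the 17, near the 9.75% of all tested genes that were lower without overlap. Atp5d (ENSMUSG00000003072, chr10:80138632-80145818) was at 148, 142 and 171 CPM in NM1 KO and 206, 186 and 194 CPM in NM1 WT, a difference of -0.35 on the log2 scale (SE 0.12, adjusted p = 0.191, edgeR quasi-likelihood test). Atp5e was at 182, 184 and 183 CPM against 214, 194 and 222 CPM, a difference of -0.20 on the log2 scale (SE 0.12, adjusted p = 0.422) between knockout mice that were nearly level with one another. The stalk subunit gamma, Atp5c1, was not separated, at 117, 124 and 151 CPM against 122, 156 and 135 CPM.

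The catalytic head overlapped in both of its main subunits. Atp5a1, the alpha subunit and the complex V gene with the highest level per length, was at 540.3, 578 and 670.5 CPM against 539.7, 671 and 547 CPM (log2 fold change 0.03, 95% interval -0.28 to 0.33). Atp5b, the beta subunit, was at 629, 675 and 850.2 CPM against 745, 855 and 708 CPM (log2 fold change -0.10). The membrane ring is built from a single mature protein that 3 genes encode, and in this marrow Atp5g3 was at 129.6 CPM per kilobase while Atp5g1 and Atp5g2 were at 11.1 and 10.9 CPM per kilobase. Their log2 fold changes were 0.14, -0.17 and -0.04. The mitochondrial genes of the proton channel, mt-Atp6 and mt-Atp8, had log2 fold changes of 0.02 and 0.09. NM1 KO mouse 3 was the lowest of the 6 in both. The value of mt-Atp6 is under the same limit of shared sequence, and whether that of mt-Atp8 is too was not tested.

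Summed over members, the groups did not separate in either genome. The 13 mitochondrial genes took 1.75%, 1.62% and 1.32% of the counts in NM1 KO and 1.74%, 1.48% and 1.69% in NM1 WT, with means of 1.56% ± 0.222 and 1.64% ± 0.141 (SD, n = 3). The 85 nuclear genes took 0.962%, 1.03% and 1.09% against 1.05%, 1.05% and 1.10%, with means of 1.03% ± 0.063 and 1.07% ± 0.027 (SD, n = 3). For both genomes the means differed by less than the SD of the NM1 KO mice. Left out alone, NM1 KO mouse 3 turned the difference in the mitochondrial share from -0.07 to 0.05 percentage points. Within the mitochondrial counts, mt-Co1 made up 41.9% to 44.6% in NM1 KO and 37.1% to 42.3% in NM1 WT, ranges that overlap.

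**Figure D4:**
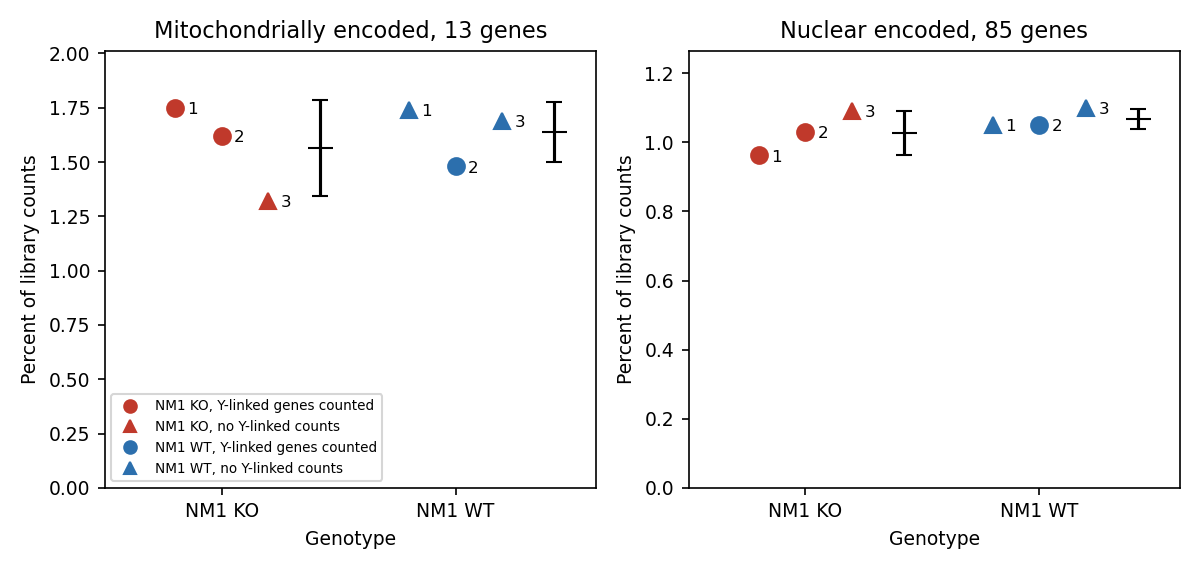
Percent of all counts of a library on the 13 mitochondrial (left) and the 85 nuclear (right) subunit genes, with 1 point per mouse numbered by replicate, shape for Y-linked counts, and mean with SD (n = 3) beside each group. The genotype ranges overlap on both sides, and on the left NM1 KO mouse 3 and NM1 WT mouse 2 are the lowest of their groups.

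The mitochondrial values depended on which mice were set side by side. Among the 3 mice with Y-linked counts, the mitochondrial share was higher in NM1 KO (1.62% to 1.75% against 1.48%), and among the 3 mice without them it was lower (1.32% against 1.69% to 1.74%). The same crossed order held for 8 of the 13 mitochondrial genes, where 11.8% of all tested genes showed it, and mt-Co3 alone was lower in NM1 KO in both states. Of the 82 tested nuclear members, 21 were lower in NM1 KO in both states and 6 were higher in both, beside 15.2% and 16.9% of all tested genes. Ndufb7, Ndufv3, Cox4i1 and Atp5d were among the lower and Ndufs1 among the higher. Each state holds 1 mouse of a genotype against 2 of the other, too few for a test within it.

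The nuclear members varied with the base composition of their transcripts. Across the 82 tested members, log2 fold change was lower at higher GC content (Spearman's rho -0.41), with a smaller coefficient across 13033 protein-coding genes (rho -0.24). Genes are not independent replicates and share the same 6 libraries, so these coefficients are descriptions. With an offset for GC content in the fit, rho was -0.07, the median log2 fold change of the nuclear members was -0.11, 57 of 82 were negative (69.5%, against 53.6% of all tested genes), and again 0 were called. The mitochondrial genes, whose GC content is low, had a median of -0.36 with this offset.

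**Figure D5:**
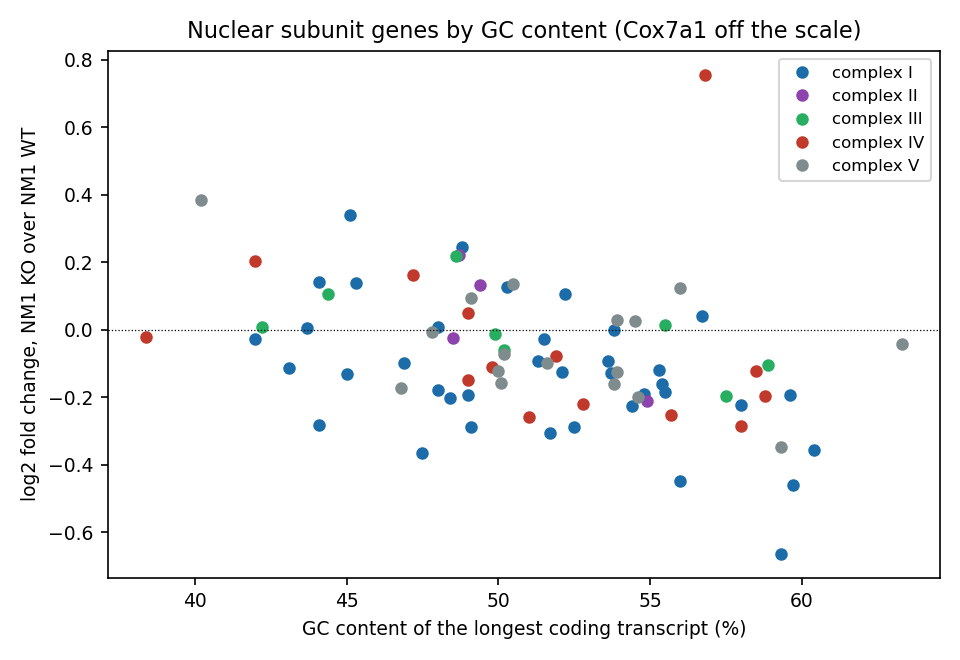
Log2 fold change (NM1 KO over NM1 WT) of the tested nuclear subunit genes against the GC content of the transcript in percent, 1 point per gene, coloured by complex; Cox7a1, at 2.29, is off the scale. Points at high GC content lie lower, with a Spearman's rho of -0.41 over all 82 genes.

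The genes listed as assembly factors of the complexes gave no calls either. Of those tested, the counts past the threshold were 0 of 18 for complex I, 0 of 4 for complex II, 0 of 6 for complex III, 0 of 21 for complex IV and 0 of 5 for complex V. The complex V list, Atpaf1, Atpaf2, Tmem70, Atpif1 and Usmg5, does not hold assembly factors in the strict sense alone. At an unadjusted p below 0.05 there were 0, 0, 0, 1 (4.76%) and 1 (20%), against 16.8% of all tested genes. The median log2 fold changes were 0.01, -0.09, -0.16, -0.15 and 0.09. For complex I, Ndufaf7 and Ndufaf2 had the smallest p, with log2 fold changes of -0.36 and 0.45 and adjusted p of 0.312 and 0.343 (edgeR). For complex IV, Sco1, which delivers copper to the oxidase, was at 8.44, 9.3 and 8.44 CPM in NM1 KO and 13.4, 13 and 11.7 CPM in NM1 WT. Its log2 fold change was -0.54 (SE 0.21, adjusted p = 0.223) with no overlap, and Coa3, another complex IV factor, had -0.25 (adjusted p = 0.327). Tmem70, which helps to assemble the ATP synthase ring, was at 21.6, 27.4 and 22.2 CPM against 15.7, 19.1 and 12.6 CPM, each knockout higher, with a log2 fold change of 0.59 (adjusted p = 0.171). Atpaf2 had 0.17, the complex II factors Sdhaf2 and Sdhaf1 had 0.20 and -0.18, and the complex III factors Bcs1l and Uqcc3 had -0.36 and -0.22, with adjusted p from 0.445 to 0.847. Cytochrome c itself (Cycs) had a log2 fold change of 0.18 and cytochrome c1 (Cyc1) of -0.06.

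The machinery of the mitochondrial genome gave 0 called genes of 16 for transcription and copying (median 0.03) and 0 of 14 for RNA processing (median 0.22). At an unadjusted p below 0.05 were 2 (12.5%) and 0, against 16.8% of all tested genes. Polg2, the accessory subunit of the mitochondrial DNA polymerase, and Mgme1, a mitochondrial nuclease, had log2 fold changes of -0.58 and 0.54 (adjusted p = 0.265 and 0.269, edgeR). Mtpap, which adds tails to mitochondrial RNA, and Tbrg4 had 0.31 and 0.22. Of 12 nuclear regulators 0 were called, and 2 (16.7%) had an unadjusted p below 0.05, near the share of all tested genes. The deacetylase gene Sirt1 was at 51.3, 61.1 and 48.8 CPM against 36.7, 38.7 and 27.6 CPM, all knockouts higher, a difference of 0.65 on the log2 scale (SE 0.16, adjusted p = 0.0933), and Ppard had -0.39 (adjusted p = 0.272).

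The pathways that feed the chain were described in the same way. Of 18 tricarboxylic acid cycle genes 0 were called and 1 (5.56%, against 16.8% of all tested genes) had an unadjusted p below 0.05, with a median of 0.00. Suclg2, a subunit of succinyl-CoA ligase, had 0.65 (adjusted p = 0.147), and Mdh2, malate dehydrogenase, had -0.28 (adjusted p = 0.307). Glycolysis, which makes ATP without mitochondria, had 1 called gene of 20: Hk2, the hexokinase that binds the outer mitochondrial membrane, fell. It was at 86.5, 51.3 and 74.1 CPM in NM1 KO and 181, 116 and 179.7 CPM in NM1 WT, a difference of -1.17 on the log2 scale (SE 0.21, adjusted p = 0.0354, edgeR quasi-likelihood test). That call was lost when any of NM1 KO mice 2 and 3 or NM1 WT mice 1 and 3 was left out (adjusted p = 0.0509 to 0.155), under limma-voom (adjusted p = 0.0529) and when Y-linked state entered the fit (adjusted p = 0.057). The size stayed near the main value in these fits, with log2 fold changes from -1.21 to -0.98. Of the 20 glycolysis genes 16 had negative log2 fold changes, with a median of -0.30. At an unadjusted p below 0.05 there were 12 (60%, against 16.8% of all tested genes), 10 of them lower, and 9 were lower without overlap (45%, against 9.75%). The gene with the next smallest p, Gpi1 (glucose phosphate isomerase), had -0.59 (adjusted p = 0.0848). Beside this, the summed neutrophil markers given above were lower in every NM1 KO mouse, though NM1 KO mouse 1 and NM1 WT mouse 3 were nearly equal, and summed eosinophil markers were at 703 to 1188 CPM against 2027 to 3367 CPM. Their part in the glycolysis values was not tested.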

How the data were processed

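For each of 6 mice the authors deposited unnormalised counts for every Ensembl gene. The submitters' processing notes name HTSeq, HISAT2 2.0.4, SAMtools 0.1.19, Trimmomatic 0.36 and FastQC, and the builds GRCm38 and mm10. Not given in the sources used here are the annotation release, the strand setting and how ambiguous reads were counted. Low counts were nearly all even (2417 genes with a count of 2 and 6 with a count of 1 in NM1 KO mouse 1), so both mates of a pair appear to have been counted. Symbols came from GENCODE M21 (GRCm38), which matched 46091 of 46603 genes, and unmatched genes held at most 0.0532% of counts. The main test was edgeR 4.0.16 (R 4.3.3): TMM scaling, filterByExpr, quasi-likelihood test with genotype alone, Benjamini-Hochberg adjustment over 15069 genes, threshold 0.05. It was tested on simulated counts first. Levels per kilobase divide CPM by the union of annotated exons.

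The members and lists were chosen with earlier results of these data known. Genes were named by a rule: in each complex the 2 nuclear members with the smallest p and the highest level per length, all mitochondrial and Sdh genes, tissue isoforms with partners, and in each pathway list the called genes and the 2 smallest p. Ndufs1, Ndufc2, Cox5b, Atp5b, Atp5c1 and the 3 Atp5g genes fall outside it and were named after their values were seen. Alternatives were scaling by RLE, upper quartile or totals, other filters, a likelihood ratio test, limma-voom (limma 3.58.1), DESeq2 1.42.0, a replicate block, each mouse left out, halved counts, no haemoglobin, immunoglobulin or mitochondrial genes, and a Y-linked covariate. A GC offset was added after the data were seen.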

Additional observations from a re-analysis of the deposited data

How the results depend on the processing

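The count of called mitochondrial members was 0 under the 18 alternatives of the fit that kept those genes. For nuclear members it was 0 except with no low-count filter, which called 2 (Cox8b and Ndufb7, adjusted p = 0.0495 for the latter), and with DESeq2, which called 1 (Ndufb7). The number of genes called among all tested varied more than the members did: 117 became 1138 with no filter, 541 with the likelihood ratio test, 37 with limma-voom, 794 with DESeq2, 208 without haemoglobin, immunoglobulin and mitochondrial genes, and 60 when Y-linked state entered the fit. Leaving out 1 mouse gave 26 (without NM1 WT mouse 1) to 344 (without NM1 WT mouse 2), with 40 without NM1 KO mouse 2, 177 without NM1 KO mouse 3 and 30 without NM1 WT mouse 3. The median of nuclear complex V ranged from -0.169 (without NM1 KO mouse 3) to 0.00 (without NM1 KO mouse 1). The same range was -0.136 to -0.064 for all nuclear members, -0.327 to -0.084 for mitochondrial members, -0.181 to -0.096 for nuclear complex I, -0.012 to 0.127 for II, -0.034 to 0.022 for III and -0.132 to -0.043 for IV. The causes were not tested.

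With the replicate number as a block 421 genes were called and 0 members, and Myo1c, Sirt1 and Gpi1 passed (adjusted p = 0.0408, 0.0313 and 0.0483). These 3 also passed with no filter, the likelihood ratio test and DESeq2, Myo1c in 3 further alternatives, and Suclg2 with no filter (adjusted p = 0.0241). The labels do not say that a number marks a shared litter or day, so the main fit did not take the numbers as pairs. Deviations of same-numbered mice correlated at 0.081, 0.123 and 0.061, and those of mice with different numbers at -0.092 to 0.015. Each mouse did correlate best with its own number, a hint from the data that the numbers may mark pairs.

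Signs of small, uncalled differences turned in places. With the GC offset mt-Co1, mt-Atp6, mt-Atp8 and Atp5g2 were at -0.115, -0.178, -0.134 and 0.036. With the Y-linked covariate mt-Co1, mt-Atp6, Uqcrh and Atp5g2 were at -0.017, -0.043, 0.04 and 0.081. Upper-quartile scaling gave mt-Atp6 -0.001. Total counts alone gave Uqcrh 0.027, mt-Nd3 0.017 and Sdha 0.013, and no filter gave Uqcrh 0.005. With 1 mouse left out, the log2 fold change of mt-Co1 ranged from -0.019 to 0.152, mt-Atp6 from -0.041 to 0.127, Uqcrh from -0.128 to 0.052, mt-Nd3 from -0.161 to 0.143, Sdha from -0.136 to 0.049, Cox7a2 from -0.125 to 0.003, Sdhaf1 from -0.434 to 0.1, Atp5a1 from -0.068 to 0.139, Atp5c1 from -0.187 to 0.032, Atp5g2 from -0.252 to 0.081, Ndufa4l2 from -1.104 to 0.022, Cyc1 from -0.127 to 0.009 and Cox6a2 from -0.335 to 0.036. Over the 46 named members with values under the alternatives, 812 of 848 values kept their sign.

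With 3 mice a group, p-values rest on the spread between few animals, and counting error limits Cox7a1, Cox8b, Ndufa4l2 and mt-Nd4l most.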
